A study of Mus musculus with 6 samples.

Results

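The genes of the mitochondrial ribosome were compared between osteoclast (OC) and osteoclast precursor (OCP) cultures. Their members were the rows of the expression table whose symbol begins with Mrpl (large subunit) or Mrps (small subunit) and a digit. After 4 pseudogene names with -ps were dropped, 78 of the 26529 genes in the table were left, 49 of the large and 29 of the small subunit. The samples were bone marrow-derived macrophages of wild-type C57BL/6 mice aged 8 weeks, and all cultures, OC and OCP alike, were given the macrophage growth factor M-CSF (20 ng/ml) and the osteoclast-inducing cytokine RANKL (10 ng/ml). OC were taken on day 6 and OCP on day 3 of culture, with 3 RNA-seq libraries in each group, and TRAP activity, that of the osteoclast enzyme Acp5, served to recognise both stages. The labels do not say whether replicates are separate mice or separate cultures. The p-values therefore speak only of the spread among these libraries, and that spread may be technical.

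The mitochondrial ribosome, or mitoribosome, translates the mRNAs of the mitochondrial genome, which encode core subunits of the respiratory chain and of ATP synthase. Its rRNAs are transcribed from mitochondrial DNA, whereas its proteins are encoded in the nucleus, made in the cytosol and imported. Some of these proteins have a counterpart in bacterial ribosomes and others do not. Osteoclasts are rich in mitochondria, and their formation from macrophages is accompanied by mitochondrial biogenesis.

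The libraries held 33219178 to 38113266 reads assigned to genes in OC and 36740844 to 42121216 in OCP. Values are RPKM, assigned reads scaled to gene length and library total, and a difference is OC minus OCP of the mean log2(RPKM + 1). Adjusted p-values are those of limma after Benjamini-Hochberg correction over the 12301 tested genes, those that reached 1 RPKM in 3 or more libraries, and a gene was called at an adjusted p under 0.05. The labels and the markers went apart: all 12 osteoclast markers tested were lower in the libraries labelled OC, at a summed 2779 to 2865 RPKM in OC against 5188 to 5344 RPKM in OCP, and none was at 0. Of 10 macrophage markers, 8 were higher and 2 lower in OC, with sums of 1563 to 1631 RPKM in OC and 1395 to 1464 RPKM in OCP. The 8 include Cx3cr1, which passed the filter only through its OC values. With any single OC library left out, 6 were higher and 2 lower. All directions below go by the labels. An exchange of the 2 group labels cannot be told apart from a difference between the groups in these files, and every direction below would then turn round: the summed level of the 78 genes, 24.2% lower in OC by the labels, would be 32.0% higher. The part of the marker difference in the results was not tested. In bulk RNA, fewer cells of a type and less RNA per cell cannot be told apart.

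Transcripts of most mitoribosomal proteins were lower in the libraries labelled OC. All 78 genes passed the filter on low values, each with at least 130 reads in every library. Of these, 65 fell, 2 rose and 11 were not called, and the median difference was −0.37. Of all tested genes, 32.1% were lower and 23.5% were higher in OC at the same threshold, with a median difference of −0.05. Every OC library lay below every OCP library for 67 of the 78 genes and above for 3, while the groups overlapped for 8. Over all tested genes these shares were 36.0% below and 26.7% above. Of the 78 genes, 17 were lower by 1.5-fold or more, and none was higher by as much. Shares at this fold were not counted over all tested genes, so these counts have no background to be read against.

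Most genes of either subunit were lower in OC. In the large subunit, 38 of 49 genes fell, 2 rose and 9 were not called, with a median of −0.36 and a range of −0.82 to 0.46. In the small subunit, 27 of 29 fell and 2 were not called, with a median of −0.39 and a range of −0.72 to −0.05. With TMM scaling, which moved the median of all genes to 0.01, the medians were −0.29 for the large and −0.33 for the small subunit. The difference between the subunits was not tested. In the plot of all differences by gene, the genes above 0 are of the large subunit; Mrps18c, the highest of the small subunit, turned above 0 in 3 alternatives.

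**Figure D1:**
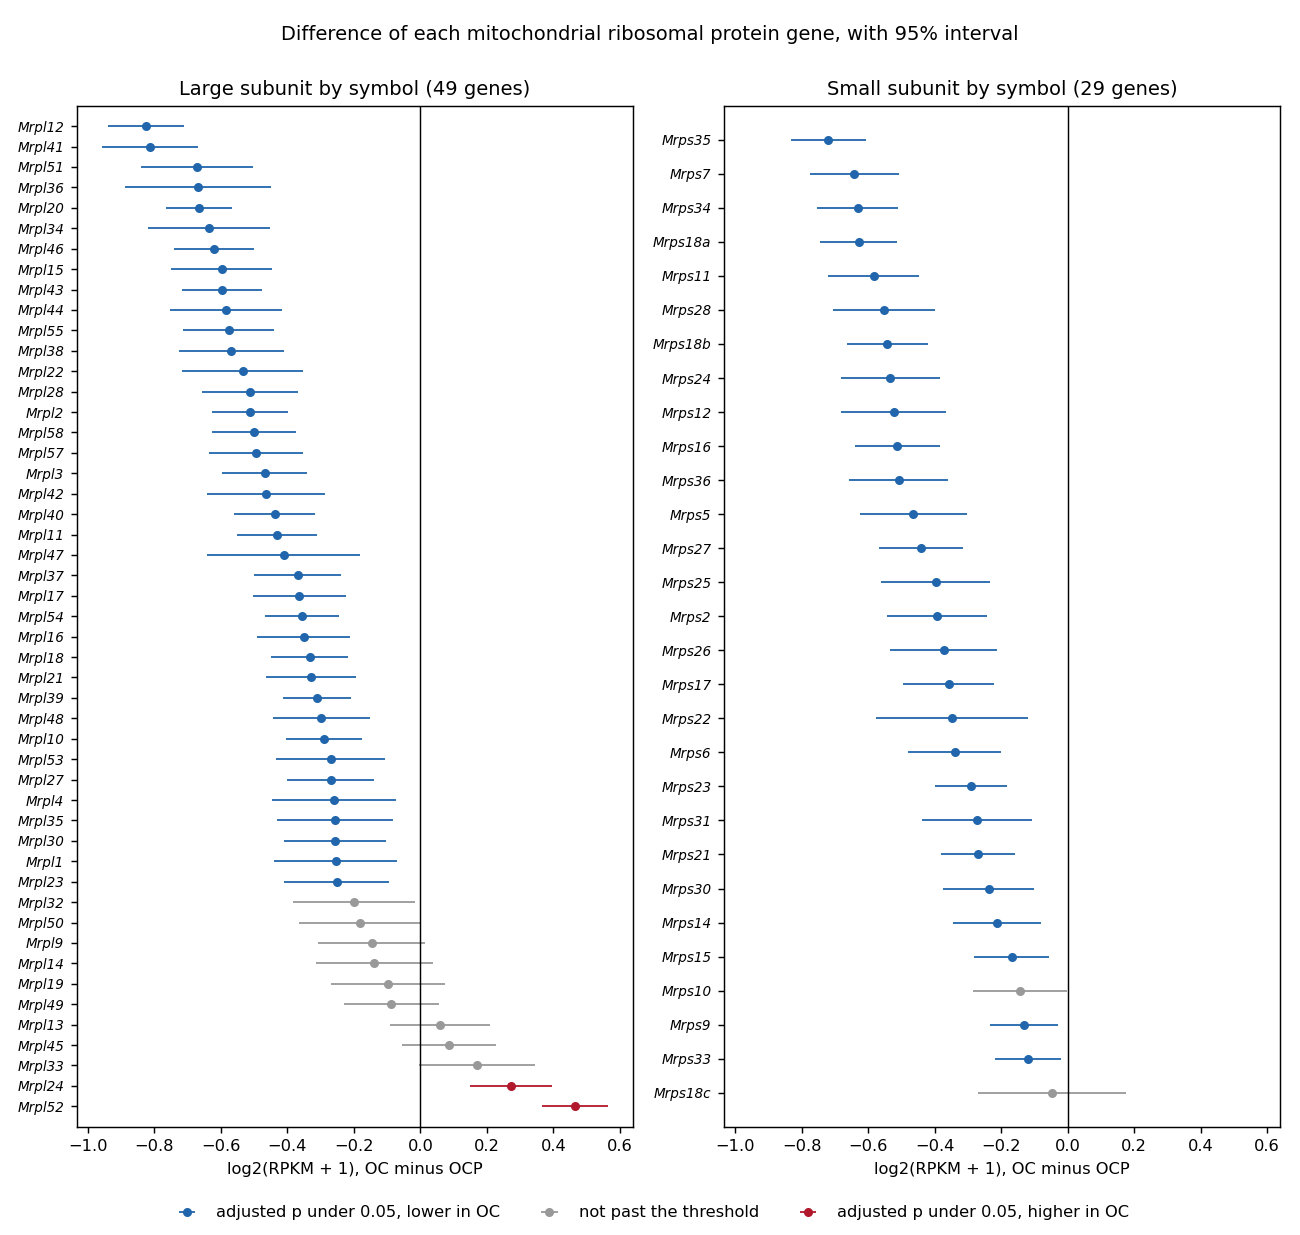
Difference of each gene on the log2(RPKM + 1) scale, OC minus OCP, with its 95% interval (horizontal axis), for the 49 genes named Mrpl (left) and the 29 named Mrps (right). Blue points are called lower in OC, red points higher, grey points not called. Most points lie left of 0, Mrpl12 lies lowest at −0.82, and Mrpl52 and Mrpl24 stand to the right of 0 as the 2 red points.

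The summed level of each subunit separated the groups. The large subunit genes summed to 1232, 1189 and 1206 RPKM in OC libraries 1 to 3, against 1627, 1597 and 1578 RPKM in OCP libraries 1 to 3. All 3 OC sums lay below all 3 OCP sums, and the mean sum was 1209 ± 21.7 RPKM in OC and 1601 ± 24.7 RPKM in OCP (SD, n = 3 each), so that it fell by 24.5%. For the small subunit the sums were 538, 544 and 525 RPKM in OC and 707, 698 and 701 RPKM in OCP. These groups did not overlap either, and the mean fell by 23.7%, to 536 ± 9.39 RPKM in OC against 702 ± 4.39 RPKM in OCP (SD, n = 3 each). The large-to-small ratio of the sums was 2.19 to 2.30 in OC and 2.25 to 2.30 in OCP, so the balance of both subunits overlapped between the groups. As a share of assigned reads, all members together took 3582 to 3661 reads in each 1000000 in OC and 4762 to 4861 in OCP. No single OC library set the pattern. The log2 ratio of RPKM to the OCP mean had a median over the 78 genes of −0.39, −0.42 and −0.43 in OC libraries 1, 2 and 3.

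**Figure D2:**
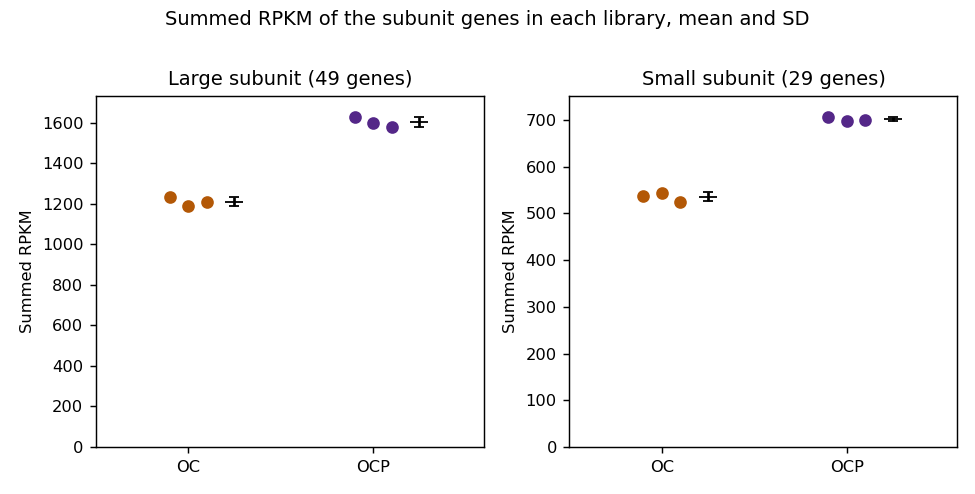
Summed RPKM of the large subunit genes (left) and the small subunit genes (right) in each library (points), with mean and SD (bars, n = 3 per group). OC sums sit at 1189 to 1232 RPKM and OCP sums at 1578 to 1627 RPKM for the large subunit, and at 525 to 544 RPKM in OC and 698 to 707 RPKM in OCP for the small subunit.

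The order of the genes by level was nearly the same in both groups (Spearman's rho 0.976 across 78 genes, which are not independent replicates). Mean levels over all 6 libraries ran over a wide range, with Mrpl33 lowest at 1.91 RPKM and Mrpl12 highest at 141 RPKM. Spearman's rho between level and difference was −0.21 across the 78 genes. Levels per length rest on the merged exons of each gene, which for genes with long alternative exons understates them.

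Mrpl12 was both the most abundant gene and the one with the largest fall. Its protein is the counterpart of bacterial L7/L12, the stalk protein that recruits translation factors. It had 103, 99.96 and 101 RPKM in OC libraries 1 to 3, against 171, 190.3 and 180.0 RPKM in OCP libraries 1 to 3. The 3 OC values were close to each other and far below the lowest OCP value, with means of 101 ± 1.70 RPKM in OC and 180.4 ± 9.73 RPKM in OCP (SD, n = 3 each) and a difference of −0.82 ± 0.05 (SE, limma adjusted p = 6.4e-06). Mrpl12 shares 13.1% of its exon bases with Gm16755, a lincRNA on the opposite strand that was itself lower in OC at −0.90 (limma adjusted p = 6.8e-06), and reads of both could be told apart only by strand.

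Mrpl41, a large subunit protein with no bacterial counterpart, came next. It had 71.1, 71.7 and 78.03 RPKM in OC libraries 1 to 3, against 140.0, 122 and 128 RPKM in OCP libraries 1 to 3, a difference of −0.81 ± 0.06 (SE, limma adjusted p = 2.3e-05). The groups were far apart, and OC library 3 was the highest of its group. Mrpl51, also without a bacterial counterpart, had 16.3, 14.3 and 14.8 RPKM in OC libraries 1 to 3, against 27.01, 24.1 and 23.1 RPKM in OCP libraries 1 to 3, with a difference of −0.67 ± 0.07 (SE, limma adjusted p = 0.00014). Its highest OC value stayed well below its lowest OCP value.

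Counterparts of bacterial large subunit proteins made up the rest of the 6 largest falls of the subunit. Mrpl36 had 4.48, 4.69 and 3.79 RPKM in OC libraries 1 to 3, against 8.32, 7.48 and 6.60 RPKM in OCP libraries 1 to 3, a difference of −0.67 ± 0.09 (SE, limma adjusted p = 0.00056). Mrpl20, whose bacterial relative binds rRNA early in assembly, had 16.7, 16.3 and 17.01 RPKM in OC libraries 1 to 3, against 27.4, 26.7 and 27.3 RPKM in OCP libraries 1 to 3, a difference of −0.67 ± 0.04 (SE, limma adjusted p = 9.3e-06). Mrpl34 had 24.5, 20.1 and 20.8 RPKM in OC libraries 1 to 3, against 36.1, 34.9 and 32.2 RPKM in OCP libraries 1 to 3, a difference of −0.64 ± 0.08 (SE, limma adjusted p = 0.00029). In all of these the groups were separate, and of these Mrpl20 had the tightest replicates. The other large subunit genes called lower had differences from −0.62 (Mrpl46) to −0.25 (Mrpl23).

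Mrpl52 went against the rest. Its protein has no bacterial counterpart, and it was the second most abundant member by mean level. It had 153, 150.4 and 143 RPKM in OC libraries 1 to 3, against 107, 109 and 106 RPKM in OCP libraries 1 to 3. Every OC library was well above every OCP library, with means of 149 ± 5.41 RPKM in OC and 108 ± 1.25 RPKM in OCP (SD, n = 3 each), a ratio of 1.38 and a difference of 0.46 ± 0.04 (SE, limma adjusted p = 6.3e-05). Mrpl52 (chromosome 14, 54426909 to 54429756, plus strand, GRCm38) shares no exon base with another gene of the table and has no near-identical copy by the search described under processing. The call held in all 15 alternatives.

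Mrpl24 was the other riser. Its bacterial counterpart L24 starts the assembly of the large subunit in Escherichia coli. It had 20.1, 21.99 and 19.8 RPKM in OC libraries 1 to 3, against 17.2, 17.1 and 16.5 RPKM in OCP libraries 1 to 3, a difference of 0.27 ± 0.05 (SE, limma adjusted p = 0.0032). The groups were separate, but by little more than the spread within OC. Mrpl24 shares 26.3% of its exon bases with Rrnad1 on the opposite strand, which had 3.08 ± 0.0336 RPKM in OC and 2.27 ± 0.0692 RPKM in OCP (SD, n = 3 each) and was also higher in OC at 0.32 (limma adjusted p = 0.0018). The part of Rrnad1 reads in the Mrpl24 values was not tested.

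Mrpl33, the counterpart of bacterial L33 and the member with the lowest mean RPKM, had 2.33, 2.06 and 1.87 RPKM in OC libraries 1 to 3, against 1.80, 1.63 and 1.79 RPKM in OCP libraries 1 to 3. This rank depends on the merged exon length: the lowest read count of a member, 130, was that of Mrpl36 in OC library 3. All OC values lay above all OCP values by a narrow margin. Its difference of 0.17 ± 0.08 (SE) was not called (limma adjusted p = 0.088), but passed the threshold with TMM scaling (0.22, limma adjusted p = 0.036) and with voom on the recovered reads (0.30, voom adjusted p = 0.013). The other large subunit genes not called were Mrpl32, Mrpl50, Mrpl9, Mrpl14, Mrpl19, Mrpl49, Mrpl13 and Mrpl45. Their differences ran from −0.20 for Mrpl32 to 0.09 for Mrpl45, and the 95% interval reached −0.38 to −0.02 for Mrpl32 and −0.06 to 0.23 for Mrpl45.

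In the small subunit the largest fall was that of Mrps35, a protein with no bacterial counterpart. It had 5.82, 5.92 and 5.85 RPKM in OC libraries 1 to 3, against 10.1, 10.6 and 10.2 RPKM in OCP libraries 1 to 3, a difference of −0.72 ± 0.05 (SE, limma adjusted p = 1.2e-05). OC values were almost identical and far below all OCP values. Mrps7, the counterpart of bacterial S7 in the head of the small subunit, had 19.5, 17.2 and 17.8 RPKM in OC libraries 1 to 3, against 27.99, 29.4 and 29.1 RPKM in OCP libraries 1 to 3, a difference of −0.64 ± 0.06 (SE, limma adjusted p = 5.2e-05). The OC values were again all below the OCP values.

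Mrps34, which is specific to mitochondria and needed for a stable small subunit in mice, had 13.5, 13.6 and 13.2 RPKM in OC libraries 1 to 3, against 20.2, 22.5 and 21.4 RPKM in OCP libraries 1 to 3, a difference of −0.63 ± 0.05 (SE, limma adjusted p = 3.5e-05). The groups were well apart. Mrps34 shares 63.4% of its exon bases with Mapk8ip3 on the opposite strand, which was higher in OC at 0.38 (limma adjusted p = 0.0007), and 37.0% with Nme3 on its own strand, which was lower at −0.52 (limma adjusted p = 0.011). Mrps34 and Mapk8ip3 thus differed in opposite directions, and how reads on shared bases were assigned is not given in the sources used here.

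The most abundant small subunit gene was Mrps21, the counterpart of bacterial S21. It had 50.8, 48.7 and 46.3 RPKM in OC libraries 1 to 3, against 58.3, 60.2 and 57.8 RPKM in OCP libraries 1 to 3, a difference of −0.27 ± 0.05 (SE, limma adjusted p = 0.002), smaller than the subunit's median. The least abundant, Mrps17, the counterpart of bacterial S17, had 2.27, 2.08 and 2.24 RPKM in OC libraries 1 to 3, against 3.11, 3.16 and 3.01 RPKM in OCP libraries 1 to 3, a difference of −0.36 ± 0.06 (SE, limma adjusted p = 0.0013). In both genes the groups did not overlap. Mrps33 had the smallest called difference, −0.12 ± 0.04 (SE, limma adjusted p = 0.047), and kept its call in 3 of the 15 alternatives; it was named after its values were seen. Its pseudogene copy Gm5776, 99.7% identical over the aligned bases, was read at 4.80 ± 0.659 RPKM in OC and 7.61 ± 0.513 RPKM in OCP (SD, n = 3 each), lower in OC at −0.57 (limma adjusted p = 0.00096), so reads of the 2 cannot be assigned with certainty.

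Of the 3 paralogs related to bacterial S18, 2 fell and 1 was not called. In mammalian mitoribosome structures Mrps18a sits in the large subunit, whereas Mrps18b and Mrps18c sit at different places of the small subunit. Mrps18a had 13.6, 12.7 and 13.4 RPKM in OC libraries 1 to 3, against 20.3, 20.9 and 21.7 RPKM in OCP libraries 1 to 3, a difference of −0.63 ± 0.05 (SE, limma adjusted p = 2.9e-05). Mrps18b had 15.1, 14.5 and 15.2 RPKM in OC libraries 1 to 3, against 21.02, 23.2 and 22.4 RPKM in OCP libraries 1 to 3, a difference of −0.54 ± 0.05 (SE, limma adjusted p = 7.5e-05). In both, all OC libraries were below all OCP libraries.

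Mrps18c had 33.7, 34.1 and 35.4 RPKM in OC libraries 1 to 3, against 41.8, 31.3 and 34.3 RPKM in OCP libraries 1 to 3. The OC values lay inside the OCP range, in which library 1 stood above the others. Its difference was −0.05, with a 95% interval of −0.27 to 0.18 (limma adjusted p = 0.71), and without OCP library 1 it was 0.07. Differences between the paralogs themselves were not tested. Mrps18b has a pseudogene copy, Gm13552, that is 99.8% identical over the aligned bases and was read at 6.91 ± 0.959 RPKM in OC and 12.5 ± 1.40 RPKM in OCP (SD, n = 3 each), lower in OC at −0.77 (limma adjusted p = 0.00047). Mrps18b also shares 30.5% of its exon bases with Gm16279 on the opposite strand, which was lower in OC at −0.57 (limma adjusted p = 5.0e-05). Mrps18c shares 23.2% of its exon bases with Gm43511 on the same strand. Reads on such bases cannot be assigned with certainty.

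Mrps30 and Mrps36 have names that differ from their place. Mrps30 is built into the large subunit. It had 23.5, 25.2 and 21.7 RPKM in OC libraries 1 to 3, against 28.2, 27.5 and 27.7 RPKM in OCP libraries 1 to 3, a difference of −0.24 ± 0.06 (SE, limma adjusted p = 0.0097). Mrps36 encodes a subunit of the 2-oxoglutarate dehydrogenase complex and not a ribosomal protein. It had 11.1, 11.7 and 12.9 RPKM in OC libraries 1 to 3, against 17.8, 16.6 and 17.6 RPKM in OCP libraries 1 to 3, a difference of −0.51 ± 0.06 (SE, limma adjusted p = 0.00031). Both were lower in every OC library than in every OCP library. With Mrps18a and Mrps30 moved to the large subunit and Mrps36 left out, 40 of 51 large and 24 of 26 small subunit genes were lower in OC, and the same 2 large subunit genes were higher.

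**Figure D3:**
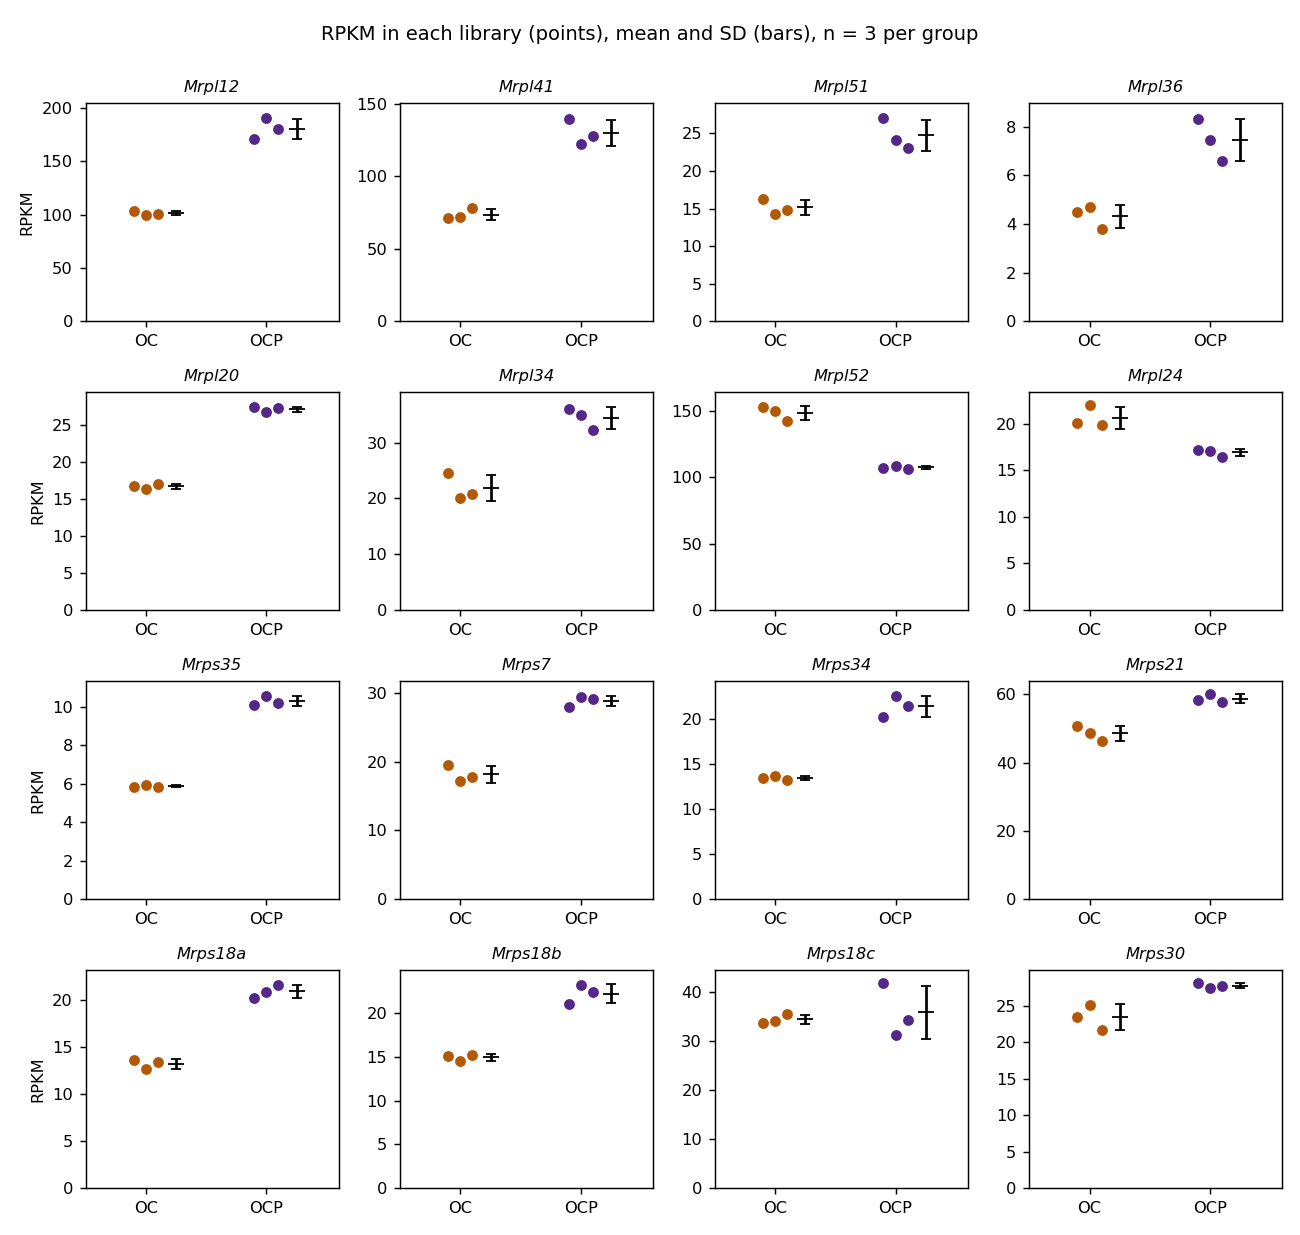
RPKM in each library (points) for 16 genes, with mean and SD (bars, n = 3 per group), OC in orange and OCP in purple; every vertical axis starts at 0. OC points lie below OCP points in all panels but Mrpl52 and Mrpl24, where they lie above, and Mrps18c, where the OC points at 33.7 to 35.4 RPKM lie inside the OCP range of 31.3 to 41.8 RPKM.

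Sorted by descent, the groups were close. Of 30 large subunit genes with a bacterial counterpart, 23 were lower and 1 higher in OC, with a median of −0.33. Of 19 without one, 15 were lower and 1 higher, with a median of −0.44. In the small subunit, 14 of 16 genes with a counterpart were lower, with a median of −0.38. All 10 of the remaining small subunit genes were lower, also with a median of −0.38; 9 of them encode proteins specific to mitochondria, and Mrps18b, an S18 paralog, was counted with them. Mrps18a, Mrps30 and Mrps36 were in none of these groups. These shares were not tested against each other.

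Shared sequence touches many members. Of the 78 genes, 31 share exon bases with another gene of the table, 17 of them over at least 10% of their exons, and 18 have a near-identical pseudogene. For Mrpl23, the copy Mrpl23-ps1 matched at 100% and was read at 16.6 ± 1.56 RPKM in OC and 18.6 ± 1.71 RPKM in OCP (SD, n = 3 each), above Mrpl23 itself at 6.53 ± 0.420 RPKM in OC and 7.97 ± 0.552 RPKM in OCP (SD, n = 3 each). Among members with values above, Mrpl41 has a copy (Gm6434) read at a mean of 0.0244 RPKM, Mrpl51 one (Gm14017) at 2.07 RPKM, Mrps21 one (Gm6181) at 0.546 RPKM, Mrps33 one (Gm5776) at 6.21 RPKM and Mrps36 4, of which Mrps36-ps1 was highest at 1.03 RPKM. Mrps30 shares 37.8% of its exon bases with B430218F22Rik on the opposite strand. Mrpl33 shares 3.56% with Gm43809 on the same strand, which was read at a mean of 24.2 RPKM. The 35 members with neither kind of overlap had 32 lower in OC, 1 higher (Mrpl52) and 2 not called, with a median of −0.37. The 43 with overlap had 33 lower, 1 higher (Mrpl24) and 9 not called, with a median of −0.34.

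Promoter windows are shown for the gene with the largest fall (Mrpl12), the next (Mrpl41), both risers (Mrpl52, Mrpl24), the S18 paralogs with the largest and smallest difference (Mrps18a, Mrps18c), and Mrps11, which was chosen after its values were seen because it starts beside another member. Each window is RefSeq sequence on GRCm38.p6 from 250 bases before to 50 after the annotated start, 5′ to 3′ on the strand of the gene. The windows are Mrpl12 at chr11:120484387-120484686, plus strand, Mrpl41 at chr2:24975049-24975348, minus strand, Mrpl52 at chr14:54426659-54426958, plus strand, Mrpl24 at chr3:87919294-87919593, plus strand, Mrps18a at chr17:46110754-46111053, plus strand, Mrps18c at chr5:100798509-100798808, plus strand and Mrps11 at chr7:78782881-78783180, plus strand. Capitals mark matches on either strand to GCGCANGCG (the core of the NRF1 motif), CCGGAAG (ETS factors such as GABPA) or AAGATGGCG (YY1), motifs of factors known for mitochondrial genes.
Mrpl12: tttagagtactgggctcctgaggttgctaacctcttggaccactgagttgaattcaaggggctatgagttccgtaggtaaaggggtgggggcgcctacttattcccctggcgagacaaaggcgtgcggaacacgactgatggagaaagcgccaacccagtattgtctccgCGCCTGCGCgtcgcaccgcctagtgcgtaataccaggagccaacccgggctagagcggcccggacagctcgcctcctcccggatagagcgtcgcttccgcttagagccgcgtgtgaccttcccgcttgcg
Mrpl41: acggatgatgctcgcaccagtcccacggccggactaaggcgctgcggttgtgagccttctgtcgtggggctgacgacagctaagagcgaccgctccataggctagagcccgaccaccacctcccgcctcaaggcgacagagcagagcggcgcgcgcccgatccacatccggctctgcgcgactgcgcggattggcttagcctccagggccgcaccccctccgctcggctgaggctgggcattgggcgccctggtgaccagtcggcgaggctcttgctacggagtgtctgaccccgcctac
Mrpl52: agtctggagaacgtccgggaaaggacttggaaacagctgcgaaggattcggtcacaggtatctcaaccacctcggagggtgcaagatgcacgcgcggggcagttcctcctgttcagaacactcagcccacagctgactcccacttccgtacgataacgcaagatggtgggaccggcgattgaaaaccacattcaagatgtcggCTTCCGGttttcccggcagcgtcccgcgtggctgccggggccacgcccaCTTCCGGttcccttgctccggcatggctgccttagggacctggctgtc
Mrpl24: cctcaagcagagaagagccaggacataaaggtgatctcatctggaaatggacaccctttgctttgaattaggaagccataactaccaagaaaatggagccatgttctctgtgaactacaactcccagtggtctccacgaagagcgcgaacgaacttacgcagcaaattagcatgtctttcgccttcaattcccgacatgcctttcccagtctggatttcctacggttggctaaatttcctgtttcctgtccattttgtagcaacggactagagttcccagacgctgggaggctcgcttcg
Mrps18a: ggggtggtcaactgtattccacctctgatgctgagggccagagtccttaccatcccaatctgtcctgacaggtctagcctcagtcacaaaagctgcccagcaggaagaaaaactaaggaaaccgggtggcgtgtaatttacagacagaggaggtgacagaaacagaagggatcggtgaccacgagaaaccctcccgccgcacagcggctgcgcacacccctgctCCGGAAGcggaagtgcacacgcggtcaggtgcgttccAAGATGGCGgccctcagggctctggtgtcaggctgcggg
Mrps18c: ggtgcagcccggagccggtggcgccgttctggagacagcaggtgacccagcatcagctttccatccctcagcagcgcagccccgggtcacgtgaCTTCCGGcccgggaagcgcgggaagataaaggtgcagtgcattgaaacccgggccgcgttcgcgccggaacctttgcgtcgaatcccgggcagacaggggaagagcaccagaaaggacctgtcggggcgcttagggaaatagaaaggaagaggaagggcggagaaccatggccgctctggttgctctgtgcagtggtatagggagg
Mrps11: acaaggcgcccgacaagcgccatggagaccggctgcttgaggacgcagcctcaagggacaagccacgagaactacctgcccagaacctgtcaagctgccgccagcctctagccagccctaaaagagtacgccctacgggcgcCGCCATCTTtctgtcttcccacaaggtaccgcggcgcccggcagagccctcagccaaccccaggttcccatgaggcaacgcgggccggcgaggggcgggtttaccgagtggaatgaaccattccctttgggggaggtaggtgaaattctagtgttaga

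Mrpl12 thus holds an NRF1 core match, Mrpl52 a pair of ETS matches, Mrps18a an ETS and a YY1 match, Mrps18c an ETS match and Mrps11 a YY1 match, while the windows of Mrpl41 and Mrpl24 hold none of these letters. Of the 78 genes, 69 had 1 or more windows, 75 in all. The NRF1 core stood in 21.3% of them, against 14.0% of the windows of all tested genes. The ETS motif stood in 34.7% against 18.9%, and the YY1 motif in 10.7% against 3.35%. Any of the 3 stood in 56.0% of member windows and 31.8% of those of all tested genes; over the whole table, tested or not, it was 14.8%. Among members, any motif stood in 54.7% of the 64 windows of genes lower in OC and in 63.6% of the 11 windows of genes higher or not called. A match is a run of letters and not a bound site, and no test was made.

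Many members start close to another gene. For 30 of 78 (38.5%), a protein-coding gene on the other strand starts within 1000 bases, against 17.1% of the 9728 tested protein-coding genes. Of these neighbours, 26 were tested, counted once per member: 14 were lower and 2 higher in OC, with a median of −0.20. The 14 include Mrpl46 and Mrps11, which are members themselves. Eme1, Gga3, Ighmbp2 and Ndufb5, also of the 14, share exon bases with their member, from 5.82% of those of Mrpl21 to 13.9% of those of Mrpl47. Reads on such bases cannot be assigned with certainty. The rest of the 14 share none with their member. Over all tested genes 32.1% were lower and 23.5% higher. One pair joins both subunits, with Mrpl46 (large) and Mrps11 (small) head to head on chromosome 7. Mrpl46 had 49.5, 50.02 and 51.8 RPKM in OC libraries 1 to 3, against 83.1, 74.97 and 76.4 RPKM in OCP libraries 1 to 3, and Mrps11 had 16.3, 14.6 and 15.6 RPKM in OC libraries 1 to 3, against 22.8, 23.3 and 25.01 RPKM in OCP libraries 1 to 3. Both were below OCP in every OC library, at −0.62 ± 0.05 (SE, limma adjusted p = 3.5e-05) for Mrpl46 and −0.58 ± 0.06 (SE, limma adjusted p = 9.9e-05) for Mrps11; they share 173 exon bases on opposite strands.

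Other pairs moved together or apart. Mrps12, the counterpart of bacterial S12 in the decoding centre, starts 172 bases from Sars2, the mitochondrial seryl-tRNA synthetase, and the differences were −0.52 for Mrps12 (limma adjusted p = 0.00037) and −0.58 for Sars2 (limma adjusted p = 0.00067). Mrpl44 differed by −0.59 (limma adjusted p = 0.0003) beside Wdfy1, which had 3.79, 3.61 and 3.54 RPKM in OC libraries 1 to 3, against 1.69, 1.56 and 1.90 RPKM in OCP libraries 1 to 3 and differed by 0.77 ± 0.07 (SE, limma adjusted p = 4.8e-05). Mrpl48 differed by −0.30 (limma adjusted p = 0.0045) beside Rab6a, a Golgi GTPase, which differed by 0.30 ± 0.06 (SE, limma adjusted p = 0.0035). In these last pairs the member and its neighbour share some exon bases and still differed in sign. These pairs were named after their values were seen.

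**Figure D4:**
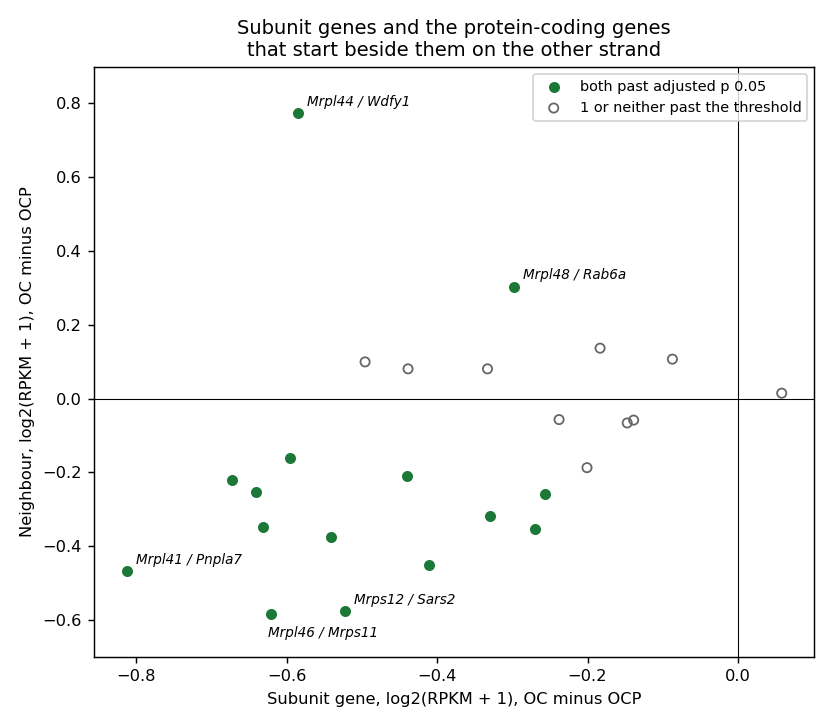
Difference of each subunit gene (horizontal axis) and of the protein-coding gene that starts within 1000 bases of it on the other strand (vertical axis), both on the log2(RPKM + 1) scale, OC minus OCP. Filled points are pairs with both genes called, open points the others, and the pair of Mrpl46 and Mrps11 is drawn once. Most filled points lie at the lower left, and Wdfy1 (0.77) and Rab6a (0.30) lie above 0.

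Other parts of the mitochondrial translation system were read from lists of known genes. Over all tested genes 32.1% were lower and 23.5% higher in OC, and no list was tested against these shares. Of 6 genes with other symbols, for mitoribosomal proteins and the insertase Oxa1l, 5 fell and 1 (Dap3) was not called, with a median of −0.35. Gadd45gip1, a large subunit protein, had 19.9 ± 0.532 RPKM in OC and 34.8 ± 1.95 RPKM in OCP (SD, n = 3 each), a difference of −0.77 ± 0.05 (SE, limma adjusted p = 1.4e-05). Oxa1l, the inner membrane insertase that receives the new chains, differed by −0.45 ± 0.06 (SE, limma adjusted p = 0.00047), and Chchd1, a small subunit protein and the most abundant of this list, by −0.31 ± 0.07 (SE, limma adjusted p = 0.0065).

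Of 12 tested translation factors, 7 fell and 5 were not called, with a median of −0.32. Tufm, the mitochondrial elongation factor Tu, had 83.7 ± 3.85 RPKM in OC and 120.5 ± 5.80 RPKM in OCP (SD, n = 3 each), a difference of −0.52 ± 0.05 (SE, limma adjusted p = 0.00011). Taco1, which activates the translation of the Co1 mRNA, differed by −0.46 ± 0.05 (SE, limma adjusted p = 9.5e-05). Of 23 tested assembly factors, 11 fell (47.8%, against 32.1% of all tested genes) and 12 were not called, with a median of −0.17. Noa1, a GTPase of small subunit assembly, differed by −0.63 ± 0.07 (SE, limma adjusted p = 0.00016), and Rnmtl1 (Mrm3), an rRNA methyltransferase, by −0.60 ± 0.06 (SE, limma adjusted p = 0.00013). Rbfa, the most abundant assembly factor and one that acts on the small subunit, differed by −0.32 ± 0.06 (SE, limma adjusted p = 0.0034).

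Of 18 tested mitochondrial tRNA synthetases and amidase subunits, 15 fell and 3 were not called, with a median of −0.28. Sars2 had 3.14 ± 0.111 RPKM in OC and 5.19 ± 0.659 RPKM in OCP (SD, n = 3 each), a difference of −0.58 ± 0.08 (SE, limma adjusted p = 0.00067). Lars2, the leucyl-tRNA synthetase, differed by −0.44 ± 0.09 (SE, limma adjusted p = 0.0047), and Gars, the most abundant, which charges glycyl-tRNA in cytosol and mitochondria, by −0.32 ± 0.04 (SE, limma adjusted p = 0.00029). Of 9 tested genes of mitochondrial transcription and RNA stability, 4 fell and 5 were not called, with a median of −0.19. The share lower was 44.4%, against 32.1% of all tested genes, in a short list. Polrmt, the mitochondrial RNA polymerase, differed by −0.48 ± 0.07 (SE, limma adjusted p = 0.00093). Slirp, an RNA-binding partner of Lrpprc and the most abundant of them, was at 0.02 (limma adjusted p = 0.81). Mterf2, a factor of the MTERF family, was at −0.53 ± 0.15 (SE, limma adjusted p = 0.021), and the call was lost without OC library 1 (limma adjusted p = 0.058), without OCP library 1 (0.065) or without OCP library 2 (0.054).

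The mitochondrial transcripts themselves did not all move the same way. Of the 13 mRNAs of the mitochondrial genome, 10 fell, 1 rose and 2 were not called, with a median of −0.38. The count lower in OC was 6 without OC library 2, and 7 without OC library 1, OCP library 1 or OCP library 3 or with no filter on low values. mt-Nd2, a complex I subunit, had 372, 394 and 409.7 RPKM in OC libraries 1 to 3, against 664, 597 and 631 RPKM in OCP libraries 1 to 3, a difference of −0.68 ± 0.06 (SE, limma adjusted p = 3.2e-05). mt-Nd4l, also of complex I and the most abundant, differed by −0.42 ± 0.10 (SE, limma adjusted p = 0.011). mt-Co1, the catalytic subunit of cytochrome c oxidase, had 2025, 1937 and 2011 RPKM in OC libraries 1 to 3, against 1531, 1120.1 and 1140.4 RPKM in OCP libraries 1 to 3, a difference of 0.67 ± 0.12 (SE, limma adjusted p = 0.0022). The OC values of mt-Co1 were all above the OCP values, among which library 1 was the highest.

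The 2 mitochondrial rRNAs differed in sign. mt-Rnr2, the large subunit rRNA, had 27.9, 23.9 and 28.2 RPKM in OC libraries 1 to 3, against 37.4, 31.4 and 38.4 RPKM in OCP libraries 1 to 3, a difference of −0.41 ± 0.09 (SE, limma adjusted p = 0.0062). mt-Rnr1, the small subunit rRNA, had 48.9, 46.6 and 49.9 RPKM in OC libraries 1 to 3, against 41.2, 44.5 and 45.8 RPKM in OCP libraries 1 to 3. Its OC values were all higher, but its difference of 0.14 ± 0.05 (SE) was not called (limma adjusted p = 0.053). It passed the threshold in 4 alternatives, with limma adjusted p-values of 0.046 for genes with a mean of at least 5 RPKM, 0.0067 after quantile normalization and 0.013 with TMM scaling, and a voom adjusted p of 0.021. The labels name a library kit for mRNA, and how far it removes rRNA is not given in the sources used here.

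Genes for import, porins, chaperones, the inner membrane and citrate synthase (Cs) had a median difference of −0.39. Mitochondrial content itself was not measured. Of 15, 13 fell and 2 were not called. Phb (prohibitin) differed by −0.72 ± 0.05 (SE, limma adjusted p = 1.1e-05), Tomm40, the import channel of the outer membrane, by −0.62 ± 0.07 (SE, limma adjusted p = 0.00016), and Hspe1, a matrix chaperonin and the most abundant, by −0.50 ± 0.04 (SE, limma adjusted p = 3.2e-05). Among 11 tested regulators of mitochondrial genes, 4 fell (36.4%), 2 rose and 5 were not called, with a median of −0.09. Over all tested genes 32.1% were lower and 23.5% higher, so the count lower was near the share of all genes. Ppargc1b, a coactivator known for mitochondrial biogenesis in osteoclasts, had 29.4, 31.1 and 30.5 RPKM in OC libraries 1 to 3, against 44.6, 50.4 and 48.4 RPKM in OCP libraries 1 to 3, a difference of −0.64 ± 0.06 (SE, limma adjusted p = 4.4e-05). Gabpb2, a subunit of the ETS complex GABP, had 3.83, 4.07 and 4.34 RPKM in OC libraries 1 to 3, against 2.60, 2.43 and 2.63 RPKM in OCP libraries 1 to 3 and differed by 0.52 ± 0.06 (SE, limma adjusted p = 0.00028). Max, the partner of MYC, differed by −0.22 ± 0.05 (SE, limma adjusted p = 0.0047). The 3 motif factors above were at 0.09 for Nrf1 (limma adjusted p = 0.23), 0.05 for Gabpa (limma adjusted p = 0.61) and 0.23 for Yy1 (limma adjusted p = 0.049). The call of Yy1, 1 of the 2 that rose, was lost in 7 of 15 alternatives, namely with no filter, without the trend and robust options, and on leaving out any single library other than OC library 2 (limma adjusted p = 0.062 to 0.12 over the 7).

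**Figure D5:**
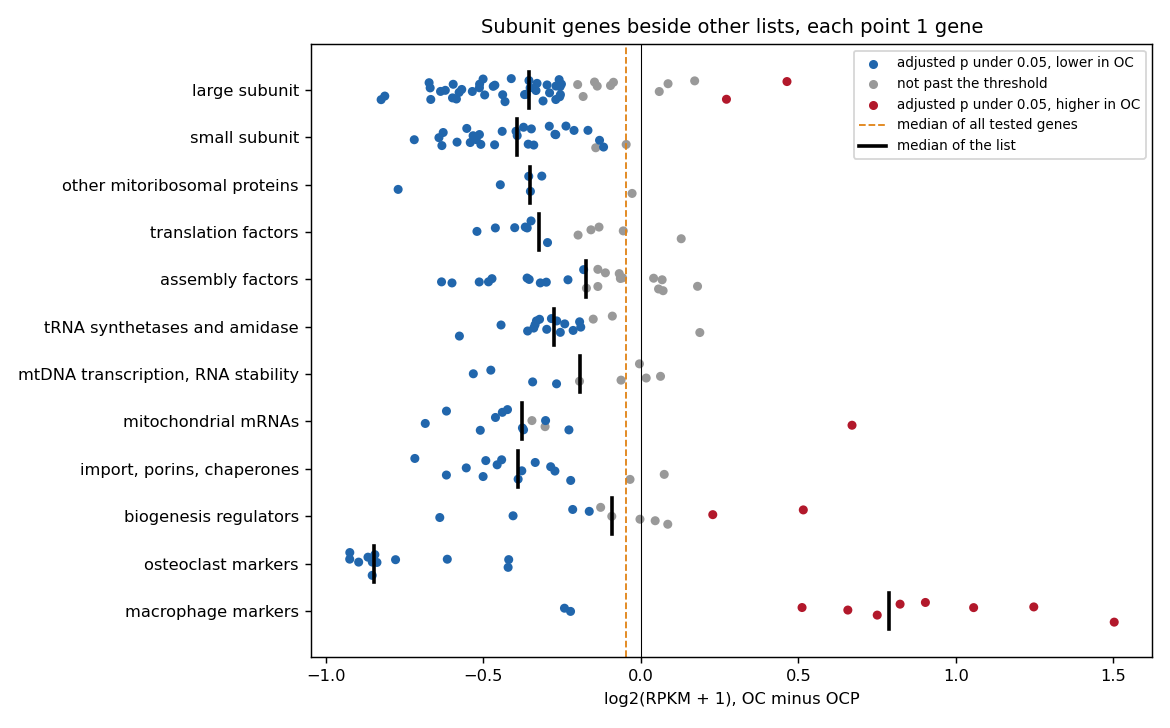
Difference of each gene on the log2(RPKM + 1) scale, OC minus OCP (points, with vertical scatter for legibility), by list. Black bars are list medians and the dashed line is the median of all tested genes at −0.05; medians are −0.36 and −0.39 for the large and small subunit, −0.85 for osteoclast markers and 0.79 for macrophage markers.

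Markers of other cells were read beside these results. Among osteoclast markers the most abundant, Ctsk (cathepsin K), differed by −0.92 ± 0.04 (SE, limma adjusted p = 1.4e-06), and Acp5, the TRAP enzyme, by −0.92 ± 0.05 (SE, limma adjusted p = 3.4e-06). Among macrophage markers Cx3cr1 had 4.19 ± 0.302 RPKM in OC and 0.833 ± 0.0955 RPKM in OCP (SD, n = 3 each). It passed the filter only through its OC values, so no p-value is given for it. Cd14 differed by 1.25 ± 0.06 (SE, limma adjusted p = 2.3e-06) and Cd68, the most abundant, by −0.24 ± 0.05 (SE, limma adjusted p = 0.0024). All 5 tested neutrophil markers were higher in OC, with sums over the list of 154 to 159.8 RPKM in OC and 71.8 to 78.5 RPKM in OCP; Lcn2 led at 1.56 ± 0.05 (SE, limma adjusted p = 1.6e-07), then Mmp8 at 0.58 ± 0.11 (SE, limma adjusted p = 0.0024). B and T cell markers summed to 1.37 to 1.41 RPKM in OC and 0.150 to 0.343 RPKM in OCP, and Cd3d, Cd3e and Ms4a1 were at 0 in every OCP library. Only Lck passed the filter, with a difference of 0.98. It did so through its OC values alone, so no p-value is given for it. Stromal markers summed to 3.23 to 3.48 RPKM in OC and 3.37 to 3.50 RPKM in OCP, led by Col1a1 at 1.01 ± 0.116 RPKM in OC and 0.851 ± 0.0219 RPKM in OCP (SD, n = 3 each), and erythroid markers to 0.124 to 0.406 RPKM in OC and 0.280 to 0.340 RPKM in OCP, led by Hbb-bs. Their part in the mitoribosomal difference was not tested.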

How the data were processed

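The submitters' processing notes name Trimmomatic 0.36, STAR 2.5.3a and featureCounts. The notes name the human build GRCh38, but the coordinates are of mouse genes, and 65 of the 78 members had the start and end of GENCODE M21 on GRCm38. Settings for strand and for multi-mapping reads are not given in the sources used here. Shared exons and near-identical copies therefore leave reads uncertain. The deposited RPKM values were divided by gene length and assigned reads by the authors, and RPKM times length gave whole reads for 100% of values within 0.01. The deposited length equals the merged exons for all 78 members. Replicates of a group were deposited apart, and no column was left out.

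Genes that reached 1 RPKM in 3 or more of the 6 libraries were tested on log2(RPKM + 1) with limma 3.58.1 (statmod 1.5.0, R 4.3.3, trended and robust moderated variance, two-sided), with Benjamini-Hochberg adjustment over all of them and 0.05 as the threshold. The steps were run on simulated data with far fewer changed genes than were called here. Such data cannot show how the calls behave when this many genes differ. Members, lists and the naming rule were chosen with earlier results of these data known. The rule named the 6 large and 4 small subunit genes with the largest called fall or rise, the most and least abundant of each subunit, Mrps18a, Mrps18b, Mrps18c, Mrps30 and Mrps36, and for each list its 2 called genes with the largest change and its most abundant gene.

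The 15 alternatives were 2 smaller pseudocounts (0.1, 0.01), dropping the filter, keeping only genes with a mean of 5 RPKM or more, TMM factors, quantile normalization, a replicate block, limma with neither trend nor robust options, voom on the recovered reads (at least 10 on average), and leaving out each library in turn. The median of all genes was −0.05, and 0.01 with TMM factors. Copies were found with blastn 2.17.0 (95% identity or more, 100 bases or more, 50% of the copy or more). Other steps used Python 3.11.15, numpy 2.4.6, pandas 2.3.3, scipy 1.17.1 and matplotlib 3.10.9. Members had a median of 1418 reads per library, and intervals cover the spread between libraries.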

Additional observations from a re-analysis of the deposited data

How the results depend on the processing

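Of the 67 called members, 58 kept their call in every alternative that tested them (15, or 14 for genes under a mean of 5 RPKM), and none of the 67 changed direction. The other 9 were Mrpl4, Mrpl35, Mrpl1, Mrpl23, Mrps22, Mrps14, Mrps15, Mrps9 and Mrps33, with limma adjusted p-values of 0.014 to 0.047. The count of large subunit genes lower in OC was 35 to 38 and of small subunit genes 23 to 27 over the alternatives that kept all libraries; TMM factors gave 35 and 23, with 3 large subunit genes higher. Leaving out each library gave 34 to 38 and 24 to 27. Over all tested genes TMM factors gave 3471 higher and 3224 lower calls, against 2889 and 3954 without them, leaving out each library gave 2211 to 2936 higher and 3259 to 3671 lower, and a mean of at least 5 RPKM left 1645 higher, with fewer genes tested. Mrps18c, never called, turned to 0.013 with quantile normalization and 0.021 with TMM factors, and ran from −0.14 to 0.067 when each library was left out; Slirp ran from −0.027 to 0.044. The causes were not tested. Deviations from the group mean correlated at −0.115, 0.143 and 0.0142 between same-numbered libraries, and at −0.2783 to 0.2575 between differently numbered ones. With 3 libraries per group these values can neither show nor exclude pairs, and the main fit did not use the numbers. With the replicate number as a block, 38 large and 25 small subunit genes were lower in OC and 2 large subunit genes higher.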
